A study of Mus musculus with 65 samples.

Results

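The 3 guides against Hnf4a, called sg1, sg2 and sg3, were each read out at their own cut site in the livers of mice at 2 weeks after injection. For each site the series holds 1 library from mice given sgRNAs (KO) and 1 from mice given the empty vector (EV). The libraries were chosen by their titles and matched by site, which gave 6 of the 65 libraries of the series. In all 6 the source was hepatocyte DNA of Rosa-LSL-Cas9-EGFP mice, which carry Cas9 and EGFP at the Rosa locus behind a stop cassette that Cre recombinase removes. The KO mice had received AAV (adeno-associated virus) packaged with sgRNAs by retro-orbital injection, and the EV mice had received AAV packaged with an empty sgRNA cassette by the same route. The source of Cre, the age of the mice, and whether the guides shared a virus or an animal are not given in the sources used here. The readout was DNA, so the hepatocyte label could not be set against marker genes, and loss of HNF4A protein was not measured.

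Hnf4a encodes a nuclear receptor that keeps hepatocytes differentiated and drives many of their metabolic genes. It lies on mouse chromosome 2 from 163506811 to 163572907 (GRCm38.p6, the assembly called mm10). Cas9 cuts both DNA strands at the place a guide RNA directs it to. End joining then either trims and rejoins the ends, often with loss or gain of a base or a few, or pairs short repeats on either side of the break and loses the bases between them, which leaves a microhomology at the junction. Within coding sequence, a gain or loss shifts the reading frame unless its length is a multiple of 3. The exon of each cut was not placed here, because no amplicon, guide or genome sequence was used. Frame outcomes below therefore describe net lengths and not proteins.

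Each read gives the sequence left at the cut of 1 amplified molecule. The KO libraries held 10982 reads at sg1, 12247 at sg2 and 13039 at sg3, and the EV libraries held 18241, 12538 and 16587. Over the whole series a library held between 2290 and 27974 reads. Each site and arm is 1 library, so no spread between mice could be measured. The 95% intervals given below are exact binomial for shares and Newcombe for differences, and cover counting error only, because no molecular identifiers tell PCR copies of a molecule apart. A Fisher's exact test here sets the reads of 2 libraries against each other, not 2 conditions. The usual read end lay at base 291, 260 and 328 in the KO libraries of sg1, sg2 and sg3, and at base 293, 262 and 330 in their EV libraries. The part of this 2 bp offset in the results was not tested.

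All 3 sites carried indels in most reads of the KO libraries and in almost none of those of the EV libraries. An indel read, one whose net length at the cut differs from 0, made up 9426 of the 10982 KO reads at sg1, against 4 of the 18241 EV reads. At sg2 there were 11002 indel reads in the KO library and 9 in the EV library, and at sg3 12232 in the KO library and 13 in the EV library. The KO minus EV difference was 85.8 percentage points at sg1 (85.1 to 86.4), 89.8 at sg2 (89.2 to 90.3) and 93.7 at sg3 (93.3 to 94.1). Each was called (two-sided Fisher's exact test with adjustment over the 21 sites), with adjusted p-values too small for the computation to represent. Of the 21 sites of the series 100% were called, so the call itself does not set the Hnf4a sites apart. Counting 1 bp indels as no edit gave differences of 54.7, 69.8 and 12.3 points at sg1, sg2 and sg3, still called but with sg3 lowest in place of highest.

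The few indel reads of the EV libraries carried alleles of the KO libraries. An allele is one combination of the template bases without a match on either side of the cut, the net length and the microhomology length. All 4, 9 and 13 EV indel reads at sg1, sg2 and sg3 had an allele that was also in the KO library of that site. The leading KO allele was found in 0, 3 and 8 of these EV reads. A count of 0 at sg1 allows a share of up to 0.0164% of its EV reads (3 reads of the total). Alleles are matched by lengths and positions and not by bases, and 10 of the 13 EV indel reads at sg3 were 1 bp insertions. The same match at the other sites of the series is not given here. Where the EV indel reads came from was not tested.

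The 3 guides left 3 different spectra. At sg1 the reads were spread over small deletions, 1 bp insertions and long insertions, at sg2 a single 2 bp deletion led, and at sg3 a 1 bp insertion made up most indel reads. The leading allele held 22.4% of the indel reads of the KO library at sg1 (21.6 to 23.3), 42.5% at sg2 (41.6 to 43.4) and 82.4% at sg3 (81.7 to 83.1). The difference was -20.1 points for sg1 minus sg2 (-21.3 to -18.8), -59.9 for sg1 minus sg3 (-61.0 to -58.8) and -39.9 for sg2 minus sg3 (-41.0 to -38.7). All 3 were called by Fisher's exact test adjusted over all 210 pairs of sites, of which 96.2% were called. At these depths a call between 2 sites is the rule, and the sizes of the differences carry the comparison.

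**Figure D1:**
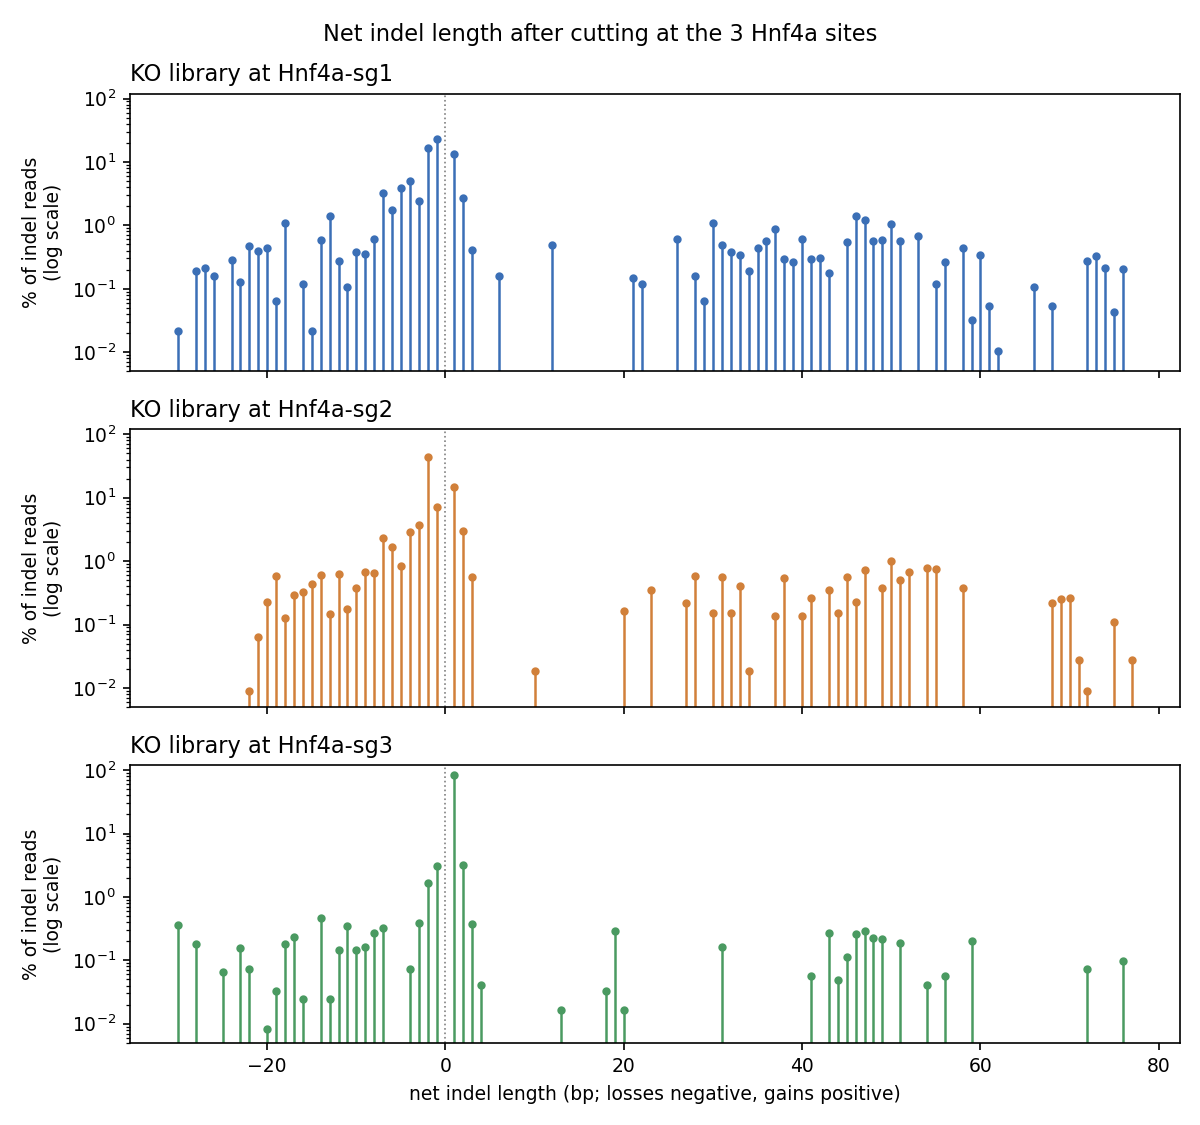
Net indel length in the KO library of each Hnf4a site, from a loss of 30 bp to a gain of 80 bp (x axis), as a percentage of the indel reads of that library (y axis, log scale). Points and lines are lengths with at least 1 read, and 3.33%, 3.24% and 1.46% of the indel reads at sg1, sg2 and sg3 lie outside the plotted range. A loss of 1 bp leads at sg1, a loss of 2 bp at sg2 and a gain of 1 bp at sg3, and most gains are of 1 to 3 bp or of 20 bp or more, with 62, 2 and 47 reads between these ranges at sg1, sg2 and sg3.

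At sg1 the most frequent allele was a 1 bp deletion right at the cut, with 2115 reads (19.3% of all KO reads, 18.5 to 20.01). Both matched parts of these reads reach the cut and share 1 base, so either of 2 like bases next to the cut can be counted as the one lost. The clean 1 bp insertion, with no template base lost, followed with 1196 reads. It was 12.7% of the indel reads. The next alleles were both 2 bp deletions. One removed the 2 bases before the cut (802 reads). The other left 1 base after the cut without a match and had 1 bp of shared sequence (656 reads). The fifth and sixth were a clean 2 bp insertion (245 reads) and a 4 bp deletion (244 reads). Of these 6 alleles the EV library held 1 read each of the 1 bp insertion and of both 2 bp deletions.

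At sg2 the leading allele was a 2 bp deletion with 2 bp of microhomology, in 4675 reads, against 3 EV reads. Both matched parts reached the cut, as they would where the 2 bases before the cut are repeated after it. At such a repeat, loss of either copy leaves the same read and is counted with 2 bp of microhomology. How the ends were joined was not tested. This allele made up 71.0% of the deletions of 2 bp or more at sg2 (69.8 to 72.0). No deletion of 2 bp or more at sg1 or sg3 had both parts reaching the cut. By depth alone a count of 0 allows up to 0.0769% and 0.368% (3 reads of the total). Such a read needs bases repeated across the cut, so a site without that repeat gives 0 at any depth. The clean 1 bp insertion came second with 1567 reads (14.2% of indel reads), and the clean 2 bp insertion followed with 302. A 1 bp deletion with 295 reads, an in-frame 3 bp deletion with 273 and a second 1 bp deletion with 246 made up the rest of the first 6.

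At sg3 the clean 1 bp insertion had 10077 reads in the KO library, or 77.3% of all its reads (76.6 to 78.0), against 8 EV reads (0.0482%). Only 3 further alleles passed 1% of the reads. They were the clean 2 bp insertion with 361 reads and 2 alleles of a 1 bp deletion with 184 and 146 reads. The most frequent in-frame allele at sg3 was a clean 3 bp insertion with 46 reads, whereas at sg1 it was a 3 bp deletion before the cut with 215 reads.

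The clean short insertions were shared by all 3 sites. The 1 bp insertion ran at 12.7%, 14.2% and 82.4% of indel reads at sg1, sg2 and sg3. The clean 2 bp insertion, chosen for this comparison after its values were seen, made up 2.599%, 2.74% and 2.95%. Its differences of -0.15 points for sg1 minus sg2 (-0.59 to 0.30), -0.35 for sg1 minus sg3 (-0.79 to 0.09) and -0.21 for sg2 minus sg3 (-0.63 to 0.22) all had intervals that include 0. No difference in the 2 bp insertion was resolved at this depth. The clean 3 bp insertion made up 0.403%, 0.554% and 0.376%. Its difference of sg2 minus sg3 was 0.178 points (0.0032 to 0.361), and the intervals of sg1 minus sg2 and of sg1 minus sg3 include 0.

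Grouped by class, the indel reads showed the same contrast. Single-base insertions made up 13.3%, 15.0% and 83.8% of the indel reads at sg1, sg2 and sg3. Single-base deletions made up 22.9%, 7.24% and 3.09%. Deletions of 2 to 19 bp with microhomology of at least 2 bp held 7.16% at sg1, 44.6% at sg2 and 0.597% at sg3. At sg2 the leading allele gave 4675 of the 4903 reads of this class. Deletions of 2 to 19 bp with 0 or 1 bp of shared sequence and no unmatched base held 28.2%, 12.96% and 1.99%, the largest class at sg1. Deletions of 20 bp or more were a minor class at 3.54%, 0.300% and 2.17%. Deletions of 2 to 19 bp that also carry unmatched bases ran at 2.52%, 2.06% and 1.91%. Of the deletions of 2 bp or more with unmatched bases, 66.8%, 56.4% and 85.3% had just 1 such base. It may be a retained template base next to the cut, because a match never passes the cut in these data. Net losses of 1 bp with an unmatched base are not counted in these shares. One such allele had 295 reads at sg2 and 184 at sg3.

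**Figure D2:**
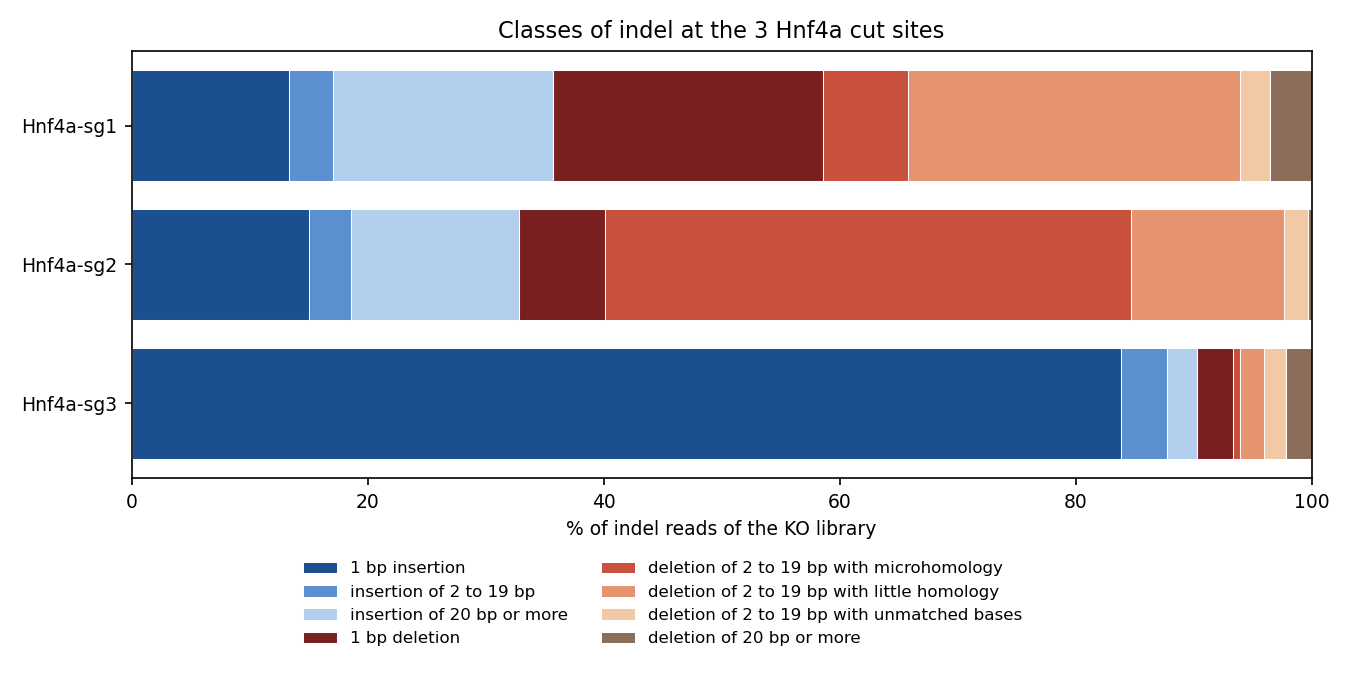
Stacked bars of 8 indel classes as a percentage of the indel reads of the KO library at each Hnf4a site, with insertions in blue and deletions in red and brown. The 1 bp insertion fills 83.8% of the bar of sg3, the deletion with microhomology 44.6% of that of sg2, and at sg1 no class passes 28.2%.

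Insertions as a whole made up 35.7% of the indel reads at sg1 (34.7 to 36.7), 32.9% at sg2 (32.0 to 33.8) and 90.2% at sg3 (89.7 to 90.8). The differences were 2.81 points for sg1 minus sg2 (1.51 to 4.12), -54.6 for sg1 minus sg3 (-55.7 to -53.5) and -57.4 for sg2 minus sg3 (-58.4 to -56.3). All were called by Fisher's exact test adjusted over the 210 pairs (97.1% called). Every one of these directions turned when the most frequent allele of each site was left out. That allele is a deletion at sg1 and sg2 and an insertion at sg3. Leaving it out therefore has to raise the share at sg1 and sg2 and lower it at sg3. The shares then stood at 46.0%, 57.2% and 44.6%, with differences of -11.2, 1.36 and 12.5 points, the middle one no longer called (Fisher's exact test, adjusted p = 0.2798). With 1 bp indels left out the shares were 35.1%, 23.0% and 49.2%, with differences of 12.1, -14.1 and -26.2 points, all called. Without indels of 20 bp or more sg1 and sg2 held 21.9% and 21.8%, and their difference of 0.18 points was not called either (Fisher's exact test, adjusted p = 0.796).

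Among deletions of 2 bp or more, 20.5% at sg1 (19.2 to 21.8), 74.7% at sg2 (73.6 to 75.7) and 19.3% at sg3 (16.6 to 22.1) had microhomology of at least 2 bp. The differences were -54.2 points for sg1 minus sg2 (-55.8 to -52.5), 55.4 for sg2 minus sg3 (52.4 to 58.2) and 1.21 for sg1 minus sg3 (-1.89 to 4.08). Fisher's exact test adjusted over the 210 pairs (85.7% called) called the first pair of them, and not the difference of sg1 and sg3 (adjusted p = 0.478). The high share at sg2 rested on its 1 leading allele. Without the most frequent deletion allele of each site the shares were 25.8%, 12.8% and 21.9%, which puts sg2 lowest, and with a minimum of 3 bp they were 13.3%, 3.19% and 11.8%. Longer microhomology, of 5 bp or more, was found in 6.25% of these deletions at sg1, 1.32% at sg2 and 7.48% at sg3. The most frequent microhomology deletion at sg3 was a 14 bp loss with 5 bp shared, in 29 reads.

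The sites differed in where the deletions left template bases without a match. At sg1 43.1% of the deletions of 2 bp or more had such bases only before the cut, 44.5% only after it and 12.4% on both sides. At sg2 the same shares were 12.2%, 11.9% and 4.92%, next to the 71.0% of the leading allele. At sg3 deletions with such bases before the cut only, after it only and on both sides were nearly even, at 36.8%, 31.8% and 31.4%. Where the matched parts share sequence, the side of the loss is not fixed. They shared at least 1 bp in 49.1%, 87.3% and 46.4% of these deletions at sg1, sg2 and sg3. The longest net loss was 50 bp at sg1, 22 bp at sg2 and 87 bp at sg3. Longer deletions, which can remove a primer site, and deletions that join separate cut sites cannot be seen in single amplicons.

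Long insertions were frequent at 2 of the guides. Net gains of 20 bp or more made up 18.6% of the indel reads at sg1 (1754 reads, 17.8 to 19.4), 14.3% at sg2 (1572 reads, 13.6 to 15.0) and 2.48% at sg3 (303 reads, 2.21 to 2.77). The differences were 4.32 points for sg1 minus sg2 (3.30 to 5.34, adjusted p = 1.39e-16 by Fisher's exact test), 16.1 for sg1 minus sg3 (15.3 to 16.97) and 11.8 for sg2 minus sg3 (11.1 to 12.5). All were called after adjustment over the 210 pairs (93.8% called). Without the leading allele of each site the shares were 24.0%, 24.8% and 14.1%, so that sg1 minus sg2 turned to -0.85 points and was no longer called (Fisher's exact test, adjusted p = 0.275). The tables do not record the inserted bases, so what was inserted is not known.

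These insertions had similar median lengths at the 3 sites, but those at sg3 were less spread. The median gain was 46 bp at sg1 (21 to 171), 51 bp at sg2 (20 to 179) and 48 bp at sg3 (20 to 108). The middle 50% of these reads gained 37 to 53 bp at sg1, 41 to 70 bp at sg2 and 45 to 51 bp at sg3. The usual read ended at base 291, 260 and 328 in the KO libraries of sg1, sg2 and sg3. A limit on read length would thus leave the least room for long gains at sg3. Its part in the ranges and shares given here was not tested. Gains of 40 to 60 bp made up 49.3% of them at sg1 (46.95 to 51.7), 48.0% at sg2 (45.5 to 50.5) and 80.2% at sg3 (75.3 to 84.5). Most sat at the cut with no template base lost, in 87.1%, 69.8% and 75.6% of cases. At the 15 other sites with at least 100 such reads the median gain ran from 34 to 51 bp. The long insertions were spread over 77, 56 and 27 alleles at sg1, sg2 and sg3, and the most frequent of these held 7.47%, 5.34% and 10.2% of them. Their net lengths shifted the frame in 69.1% of cases at sg1 (66.9 to 71.3), 71.8% at sg2 (69.5 to 74.0) and 68.3% at sg3 (62.8 to 73.5). Equal use of the 3 frames would give 66.7%, which lies inside the interval of sg3 and below those of sg1 and sg2. These intervals count reads, while the frame is set by the allele, of which there were 77, 56 and 27. They therefore cannot decide whether the frames were used unequally.

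**Figure D3:**
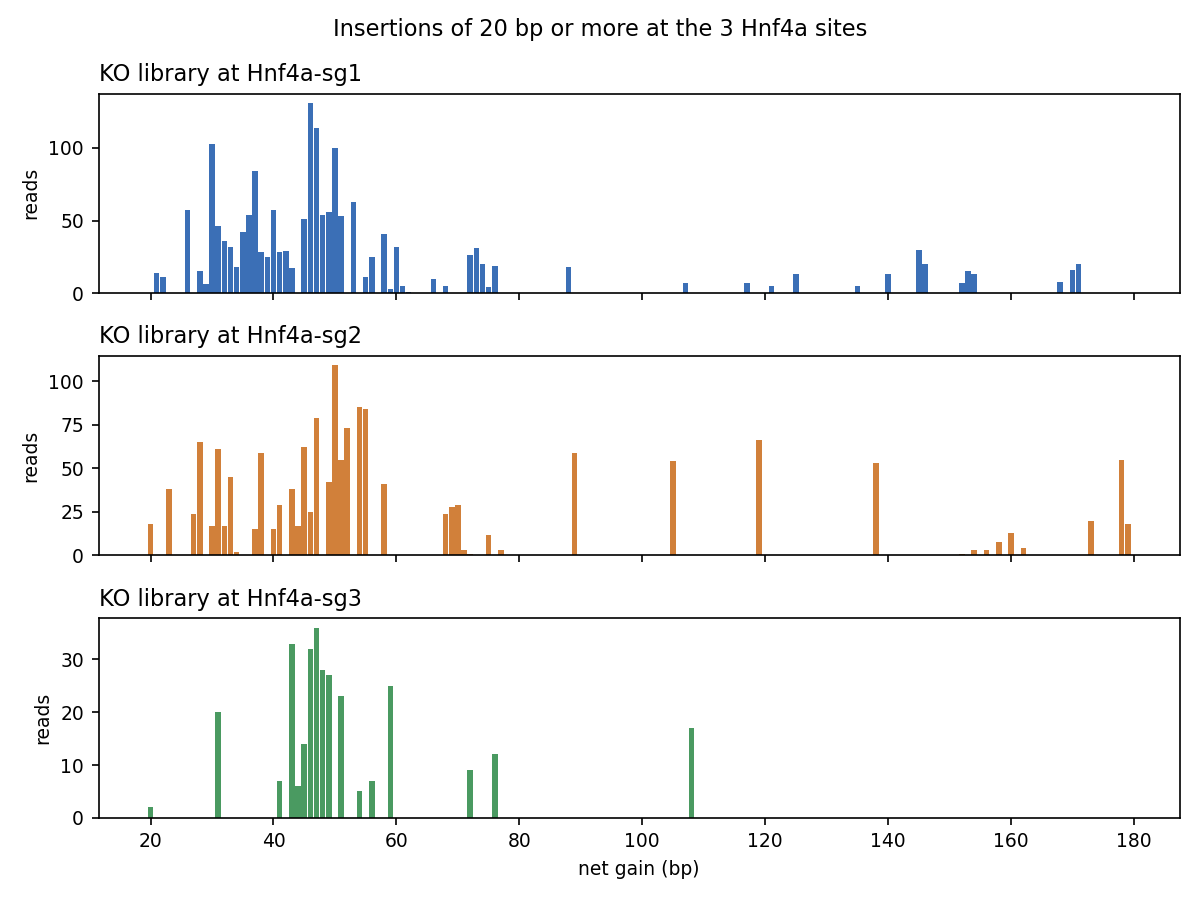
Number of reads (y axis) by net gain in bp (x axis) for insertions of 20 bp or more in the KO library of each Hnf4a site, with a separate read scale in each panel. The medians are 46, 51 and 48 bp, with 80.2% of these reads between 40 and 60 bp at sg3 and 49.3% and 48.0% at sg1 and sg2.

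Gains between the short and the long insertions were scarce, a pattern noticed after the spectra were seen. Of the insertion reads at sg1, 46.0% had gained 1 to 3 bp, 1.84% (62 reads) had gained 4 to 19 bp and 52.2% had gained 20 bp or more. At sg2 the middle range held 2 of 3616 insertion reads (0.0553%), against 56.5% with shorter and 43.5% with longer gains. At sg3 it held 47 of 11039 (0.426%), where 96.8% were 1 to 3 bp. Out of 16 possible gains of 4 to 19 bp, 2, 1 and 4 were seen at sg1, sg2 and sg3. At the 18 other sites the middle range held 0.00916% to 7.71% of insertion reads (median 0.927%), and at 17 of them fewer reads than the long range. What leaves this gap was not tested.

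The guides also differed in the share of indel reads whose net length kept the frame. Net lengths that are no multiple of 3 made up 86.0% of the indel reads at sg1 (85.3 to 86.7), 88.1% at sg2 (87.5 to 88.7) and 97.1% at sg3 (96.8 to 97.4). The differences were -2.07 points for sg1 minus sg2 (-3.002 to -1.15, adjusted p = 1.30e-05 by Fisher's exact test), -11.1 for sg1 minus sg3 (-11.9 to -10.3) and -9.03 for sg2 minus sg3 (-9.71 to -8.36). All were called after adjustment over the 210 pairs, of which 93.3% were called.

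These differences moved with the most frequent alleles, which shift the frame at all 3 sites. With the leading allele of each site left out the frameshift share was 82.0% at sg1, 79.3% at sg2 and 83.7% at sg3. The order of sg1 and sg2 then turned (2.68 points), and sg1 minus sg3 shrank to -1.73 points and was not called (Fisher's exact test, adjusted p = 0.0783). With 1 bp indels left out, sg1 and sg3 stood at 78.1% each (difference -0.034 points) and sg2 at 84.7%. That turned sg2 minus sg3 to 6.58 points and widened sg1 minus sg2 to -6.61. Without indels of 20 bp or more sg1 minus sg2 was 0.19 points and not called (Fisher's exact test, adjusted p = 0.697).

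As a share of all reads, frameshifts reached 73.8% in the KO library at sg1 (73.0 to 74.7), against 0.0219% in EV. At sg2 they reached 79.1% in KO (78.4 to 79.9) and 0.0638% in EV, and at sg3 91.1% in KO (90.6 to 91.6) and 0.0784% in EV. The reads that kept the frame, with no indel or an in-frame one, were 26.2% at sg1, 20.9% at sg2 and 8.88% at sg3 in KO. At sg1 14.2% of the KO reads had no indel and 11.99% an in-frame one. At sg2 these shares were 10.2% and 10.7%, and at sg3 6.19% and 2.69%. Reads count amplified copies and not cells, so the share of hepatocytes with no intact copy cannot be read from them.

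**Figure D4:**
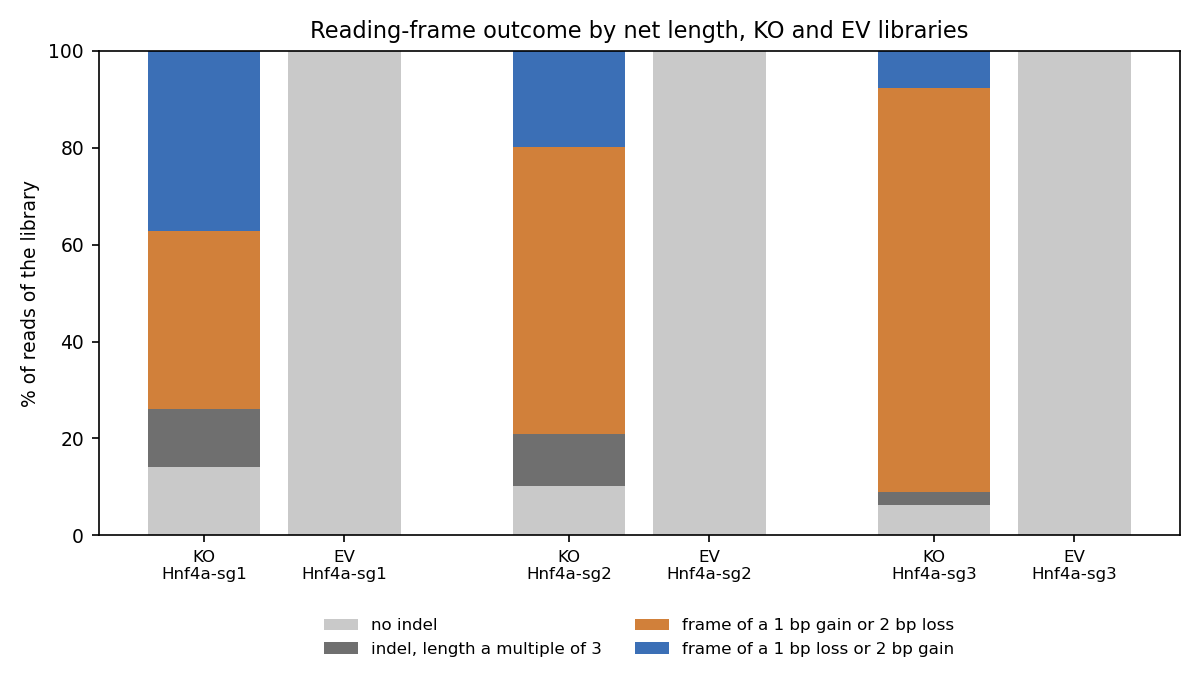
Share of reads with no indel, with an in-frame indel and with a net length in either shifted frame (stacked, percentage of all reads of the library) in the KO and EV library of each Hnf4a site. Frameshifts fill 73.8%, 79.1% and 91.1% of the KO bars of sg1, sg2 and sg3 and at most 0.0784% of an EV bar.

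The shifted frames were used unequally at sg2 and sg3. The frame of a 1 bp gain or a 2 bp loss took 42.7% of the indel reads at sg1, 66.1% at sg2 and 89.0% at sg3. The frame of a 1 bp loss or a 2 bp gain took 43.3%, 22.0% and 8.14%. At sg1 both shifted frames were thus near equal, while at sg2 the leading 2 bp deletion and the 1 bp insertion fall in the same frame. A net loss of 3 bp was the most frequent in-frame length at all 3 sites, with 229 of 1317 in-frame reads at sg1, 406 of 1309 at sg2 and 48 of 351 at sg3. In-frame indels made up 13.97%, 11.9% and 2.87% of the indel reads. Of these, insertions of 20 bp or more supplied 5.75, 4.03 and 0.785 points, and deletions of 2 to 19 bp with little homology 5.18, 5.26 and 0.482 points.

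The variety of alleles was highest at sg1 and lowest at sg3. In all, 198 alleles were seen at sg1, 152 at sg2 and 136 at sg3, of which 31, 26 and 27 had 1 read. At a common depth of 9426 indel reads the expected numbers were 198, 148 and 129. Reaching 90% of the indel reads took 62 alleles at sg1, 47 at sg2 and 7 at sg3. The inverse Simpson index, the number of equally frequent alleles that would give the same variety, was 11.97, 4.87 and 1.47.

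Some alleles were common to the guides, and at sg3 they held most indel reads. Between sg1 and sg2 43 alleles were shared, 21.7% of those of sg1 and 28.3% of those of sg2. Between sg1 and sg3 there were 33 (16.7% and 24.3%), and between sg2 and sg3 28 (18.4% and 20.6%). The 17 alleles found at all 3 sites held 24.4% of the indel reads at sg1, 24.6% at sg2 and 89.9% at sg3. Of these, the clean 1 bp insertion alone held 12.7%, 14.2% and 82.4%. They included the clean insertions of 1, 2 and 3 bp and clean insertions of 45, 46, 47 and 49 bp. Alleles are matched here by lengths and positions, not by the inserted or lost bases. The overlap between other pairs of sites is not given here, so these counts do not set the Hnf4a guides apart.

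The whole length spectra were compared by the total variation distance, which is 0 for equal spectra and 1 for spectra with no length in common. It was 0.403 between sg1 and sg2, 0.738 between sg1 and sg3 and 0.726 between sg2 and sg3, set beside a median of 0.447 over all 210 pairs of sites (0.0764 to 0.939). The 13 pairs of guides to another shared target ran from 0.0961 to 0.938, with a median of 0.484. Without Tfam-sg2-3, an amplicon named for 2 guides, the highest distance was 0.816 over 190 pairs and 0.701 over the 12 remaining pairs of guides to another shared target (median 0.443). The site nearest to sg1 was Kif11-sg3 (0.279), and the site nearest to sg2 was Lats1-sg2 (0.237). For sg3 it was Polg2-sg3 at 0.0764, the lowest distance of all pairs, followed by Tfam-sg1 at 0.0987. At Polg2-sg3 the leading allele held 82.8% of indel reads, against 82.4% at sg3. These distances are descriptions of 1 library per site, with no test.

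Against the 18 other cut sites, each taken from its first sgRNA library at 2 weeks, sg1 and sg2 had the highest long-insertion shares of all indel reads. One of the 18, Tfam-sg2-3, is an amplicon whose name gives 2 guides, and it had the lowest frameshift, insertion, long-insertion and microhomology shares of the 18. The shares of 18.6% and 14.3% were higher than at each of the 18 other sites (Fisher's exact test, adjusted over 210 pairs), which ran from 0.0693% to 12.7% with a median of 4.11% (from 0.397% without Tfam-sg2-3). The highest of these was Kif11-sg1, where the leading allele held 63.6% of indel reads, against 22.4% at sg1 and 42.5% at sg2. These ranks therefore depend on the leading alleles, which count in the denominator. Without them the long-insertion shares were 24.0% at sg1 and 24.8% at sg2, and their rank among the other sites is not given here. At sg3 the share of 2.48% was lower than at 12 of the 18 and higher than at 4. The microhomology share of 74.7% at sg2 was also higher than at all 18 others, whose highest was 64.4% and whose median was 9.27%. It rested on the leading allele of sg2, whose microhomology is at the minimum of 2 bp. Without that allele the share at sg2 was 12.8%, and with a minimum of 3 bp it was 3.19%. The rank of sg2 among the other sites under these settings is not given here.

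In frame outcome sg1 and sg2 ranked low and sg3 high. The frameshift share of sg1 was lower than at 13 of the 18 other sites and higher than at 2, and that of sg2 was lower than at 13 and higher than at 5. At sg3 it was higher than at 14 of the 18 and lower than at 2. The other sites ran from 63.2% to 99.1%, with a median of 93.8%, and from 84.1% with a median of 94.4% without Tfam-sg2-3. The insertion share of sg3 was higher than at 17 of the 18 and that of sg1 and sg2 higher than at 4 each. The leading allele of sg1 held a smaller share than that of 17 of the 18 other sites.

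**Figure D5:**
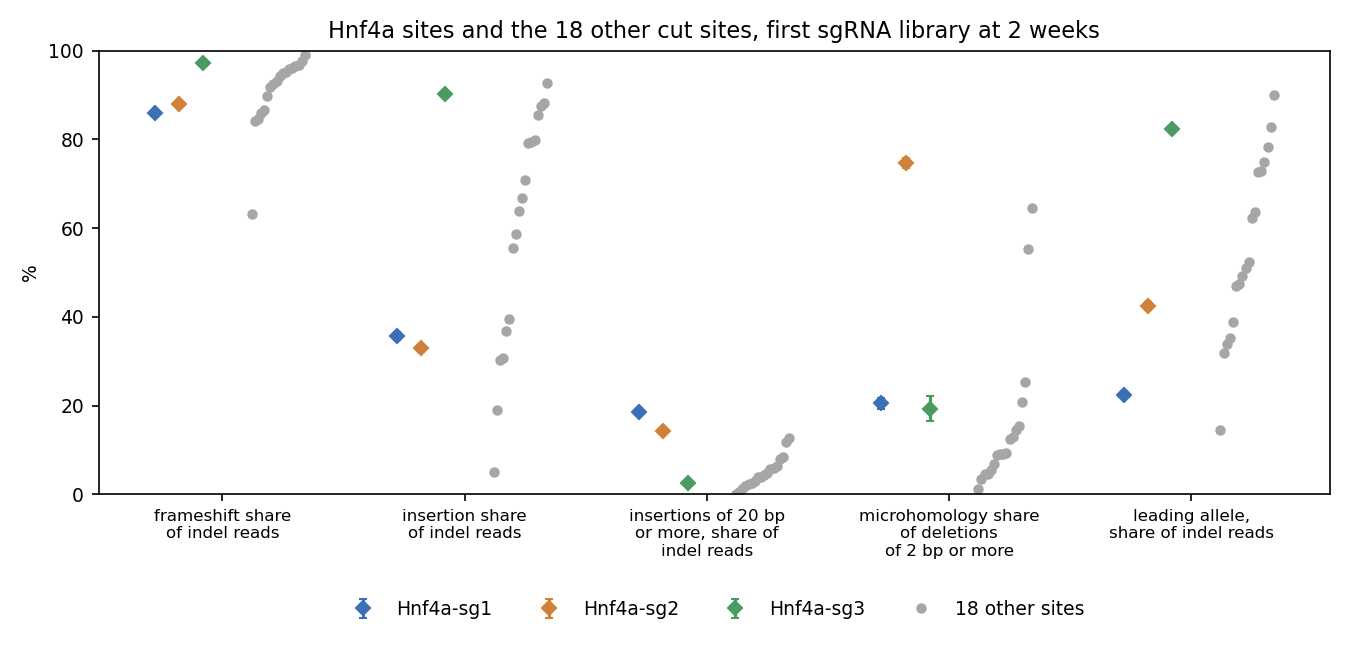
Measures of repair (x axis, each a percentage on the y axis) in the KO libraries of the Hnf4a sites (diamonds, with exact 95% intervals) and in the first sgRNA library at 2 weeks of the 18 other sites (grey points, sorted within each measure). The diamonds of sg1 and sg2 lie above all grey points for insertions of 20 bp or more, at 18.6% and 14.3%, and that of sg2 for the microhomology share, at 74.7%. The microhomology share of sg2 rests on its leading allele. The long-insertion shares count the leading allele of each site in the denominator, and their ranks without it are not given.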

How the data were processed

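Per the labels' protocols, libraries are amplicons of single cut sites made with Phusion Flash polymerase. Bowtie2, bcl2fastq, deepTools, R 4.2.1 and mm10 are named without roles in the submitters' processing notes, and no tool for setting the junctions is given in the sources used here. The deposited tables hold 1 line per read with the matched positions on both sides of the junction, the net length and the microhomology length, all in bp and not normalised, per the file headers. Here gains are positive and losses negative. A net length of 0 counted as no indel. Every junction spans 1 template position per site, taken as the cut, so indels elsewhere are not seen. The microhomology length is how far the 2 matched parts of a read overlap. At sg1, 2 alleles of a 7 bp deletion with the same right edge have overlaps of 5 and 3 bases, so matches may tolerate mismatches.

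All deposited tables but 2 (second versions for 1 Tfam site) were used. Shares have exact (Clopper-Pearson) 95% intervals and differences Newcombe intervals, and the limit for a count of 0 is 3 reads of the total. Fisher's exact tests were two-sided, with Benjamini-Hochberg adjustment over 21 sites (KO against EV) or 210 pairs of sites, at 0.05. The pairs use the KO library at 2 weeks, or the coinjection library at the Lats sites. Single alleles were named where they were among the 6 with the most reads at a guide with at least 1% of its reads, or led a class or the in-frame alleles. The members and lists were chosen with earlier results of these data known. Alternatives left out rare, 1 bp, long or leading alleles, counted equal-length replacements as edited, kept only indels near the cut, or moved the length minimum, microhomology minimum, denominator, allele definition, depth or distance measure. Cuts were not placed in exons. The Fisher procedure was tested on simulated data. Tests ran in scipy 1.17.1 and statsmodels 0.14.6 under Python 3.11.15, tables in pandas 2.3.3 and numpy 2.4.6, and plots in matplotlib 3.10.9.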

Additional observations from a re-analysis of the deposited data

Results flagged for a closer look

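The KO minus EV difference in indel share was not the same at the 3 Hnf4a sites. It differed by -3.95 points for sg1 minus sg2 (-4.80 to -3.11), by -7.92 for sg1 minus sg3 (-8.70 to -7.15) and by -3.97 for sg2 minus sg3 (-4.65 to -3.29). These intervals exclude 0 and cover counting error only. With 1 bp indels counted as unedited, an alternative applied to these differences after their values were seen, they were -15.1, 42.4 and 57.5 points, so that both differences from sg3 reversed.

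Reads without a net indel can still carry a replacement of equal length at the cut, which the comparisons of indel reads leave out. Among reads without an indel it was found in 2.83% of the KO reads at sg1 (44 of 1556), against 0.318% in EV, and in 3.97% of the KO reads at sg3 (32 of 807), against 0.772% in EV. At sg2 the shares were 0.161% in KO and 0.184% in EV, and the difference of -0.023 points had an interval of -0.171 to 0.405. Reads without an indel are few in KO and nearly all reads in EV, and over all reads the picture was another. The shares were then 0.401% in KO and 0.318% in EV at sg1 (difference 0.083 points, -0.055 to 0.237), 0.0163% and 0.183% at sg2 (-0.167, -0.260 to -0.092) and 0.245% and 0.772% at sg3 (-0.526, -0.688 to -0.368). The difference at sg3 thus changed sign with the denominator, and that at sg1 no longer excluded 0. This denominator was added after the first values were seen.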

How the results depend on the processing

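Over 18 tested results and 72 alternatives, 56 kept their direction and their side of the threshold, among them all 15 alternatives of the 3 KO minus EV differences. Their size did move: with 1 bp indels counted as unedited they were 54.7, 69.8 and 12.3 points at sg1, sg2 and sg3, and the differences between guides, an alternative added after the values were seen, were 42.4 for sg1 minus sg3 and 57.5 for sg2 minus sg3. Over all reads the equal-length replacements gave -0.526 for KO minus EV at sg3, also added later. Fractions of indel reads moved with the alleles left out, which changes their denominator. With the most frequent allele of each site left out, sg1 minus sg2, sg1 minus sg3 and sg2 minus sg3 were -11.2, 1.36 and 12.5 points for the insertion share. The frameshift share gave 2.68 points for sg1 minus sg2 and -1.73 for sg1 minus sg3, and insertions of 20 bp or more gave -0.85 for sg1 minus sg2. With 1 bp indels left out the insertion share gave 12.1, -14.1 and -26.2, and the frameshift share gave -0.034 for sg1 minus sg3 and 6.58 for sg2 minus sg3. Without indels of 20 bp or more, sg1 minus sg2 was 0.19 for the frameshift and 0.18 for the insertion share.

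For the microhomology share a minimum of 3 bp gave 10.1 for sg1 minus sg2 and -8.59 for sg2 minus sg3. Leaving out the most frequent deletion allele gave 12.97 for sg1 minus sg2, 3.91 for sg1 minus sg3 (now called by Fisher's exact test, adjusted p = 0.0412) and -9.07 for sg2 minus sg3. Leaving out alleles with under 10 reads gave 5.56 for sg1 minus sg3 (called by Fisher's exact test, adjusted p = 0.00207).

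The distance of sg1 to sg2, sg1 to sg3 and sg2 to sg3 was 0.430, 0.589 and 0.662 without 1 bp indels, 0.270, 0.561 and 0.667 as 1 minus Pearson's r, and 0.323, 0.719 and 0.715 with lengths of 20 bp or more pooled. The number of alleles at sg1, sg2 and sg3 was 167, 125.9 and 108.3 without single-read alleles, 122.6, 100.07 and 61.7 in 1000 indel reads, and 11.97, 4.87 and 1.47 as the inverse Simpson index, in the same order each time. No paired analysis was possible because each site and arm is 1 library. Depth limits an EV count of 0 to a share of 0.0164% to 0.0239%.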
